A study of Mus musculus with 2 samples.

Results

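The microRNA genes Mir144, Mir451a and Mir451b on chromosome 11 and Mir486 and Mir3107 on chromosome 8 were examined in the heart of old mice. These 5 genes were taken by their GENCODE M21 symbols, with no threshold on counts, from the 2202 microRNA genes that the deposited files list. The study sequenced microRNAs from heart tissue of female adult B6CASTF1/J mice aged 18 to 20 months, the first-generation hybrids of C57BL/6J and CAST/EiJ, with no treatment named in the labels. It holds 1 group of 2 libraries, labelled biological replicates 1 and 2, which have separate tissue records but the same donor record. Whether 2 animals were used is therefore unknown, and the spread between the libraries may be partly technical. With 1 group, no test between conditions was possible, and the question the data answer is how much of each microRNA the tissue gave and how far the libraries differed.

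The Mir144/Mir451a locus is known as a red blood cell locus: the transcription factor GATA1 switches it on as red cells form, and both microRNAs come from 1 primary transcript. miR-451a is known for its unusual maturation, in which the short hairpin skips Dicer and is cut by Argonaute 2 instead. In mice it acts on the signalling adaptor gene Ywhaz in red cell precursors. miR-144 is known, from human red cells, to act on NFE2L2, a regulator of antioxidant genes. miR-486 is abundant in red cells and is also a microRNA of skeletal and cardiac muscle. Its hairpin lies inside Ank1, the gene of the membrane skeleton protein ankyrin. A heart sample holds both muscle and blood, so its miR-486 has more than 1 possible source.

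The sequences below are RefSeq entries on GRCm38.p6, the build that mm10 names, and 3 of the 5 genes (Mir144, Mir451a and Mir451b) were matched in that table. The mature microRNAs are shown because their letters decide which reads could be told apart, with the seed (bases 2 to 8, the part that pairs with targets) in capitals.
miR-144-3p: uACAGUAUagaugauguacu
miR-144-5p: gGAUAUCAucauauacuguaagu
miR-451a: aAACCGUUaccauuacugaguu
miR-451b: uGGGAGCAgcaagagaaccgu
The 4 seeds differed from each other, and no other mature microRNA among the 1738 of the table had any of them. None of the 4 mature sequences occurred whole in the other 1004 hairpins of the table. The longest stretch that miR-144-3p shared with another hairpin was 10 bases, and miR-144-5p shared at most 9. Reads of full length from these microRNAs could thus be placed at 1 hairpin, as far as this table goes. Matches elsewhere in the genome were not searched.

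The hairpins of Mir451a and Mir451b are shown because they are the same DNA read on opposite strands, with the mature part in capitals.
Mir451a: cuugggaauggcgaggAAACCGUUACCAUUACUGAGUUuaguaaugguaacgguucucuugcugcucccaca
Mir451b: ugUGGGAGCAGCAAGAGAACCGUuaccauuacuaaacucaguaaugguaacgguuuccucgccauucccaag
Each hairpin was the exact reverse complement of the other over all 72 bases. In Mir451a the mature sequence ran from base 17 to base 38, past the middle of the hairpin. In Mir451b it ran from base 3 to base 23, in the first arm. On the chromosome, the mature parts did not overlap and lay 11 bases apart. The stem is close to a palindrome, so that bases 2 to 17 of miR-451a, 16 bases in all, also occur in the Mir451b hairpin (capitals):
miR-451a: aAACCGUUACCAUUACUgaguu
The last 5 of its 22 bases and the first base do not belong to that stretch. Only a read that both starts and ends within the shared stretch, and so lacks the first base, could be placed on either strand.

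In mm10, Mir144 lies at chr11:78073005-78073070 and Mir451a at chr11:78073170-78073241, both on the plus strand with 99 bases between them. Mir451b covers the same 72 bases as Mir451a on the minus strand. The nearest protein-coding gene, Eral1, ends 134 bases beyond Mir451a on the minus strand. Mir486 lies at chr8:23142555-23142682 on the plus strand, within an intron of Ank1 and 834 bases after the preceding exon. Mir3107, which RefSeq also lists as mmu-mir-486b, lies at chr8:23142573-23142662 on the minus strand. All 90 of its bases lie within those of Mir486, which is 128 bases long, and it also lies in an intron of the antisense gene Gm15816. No other annotated microRNA gene lay within 10 kb of either locus.

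**Figure D1:**
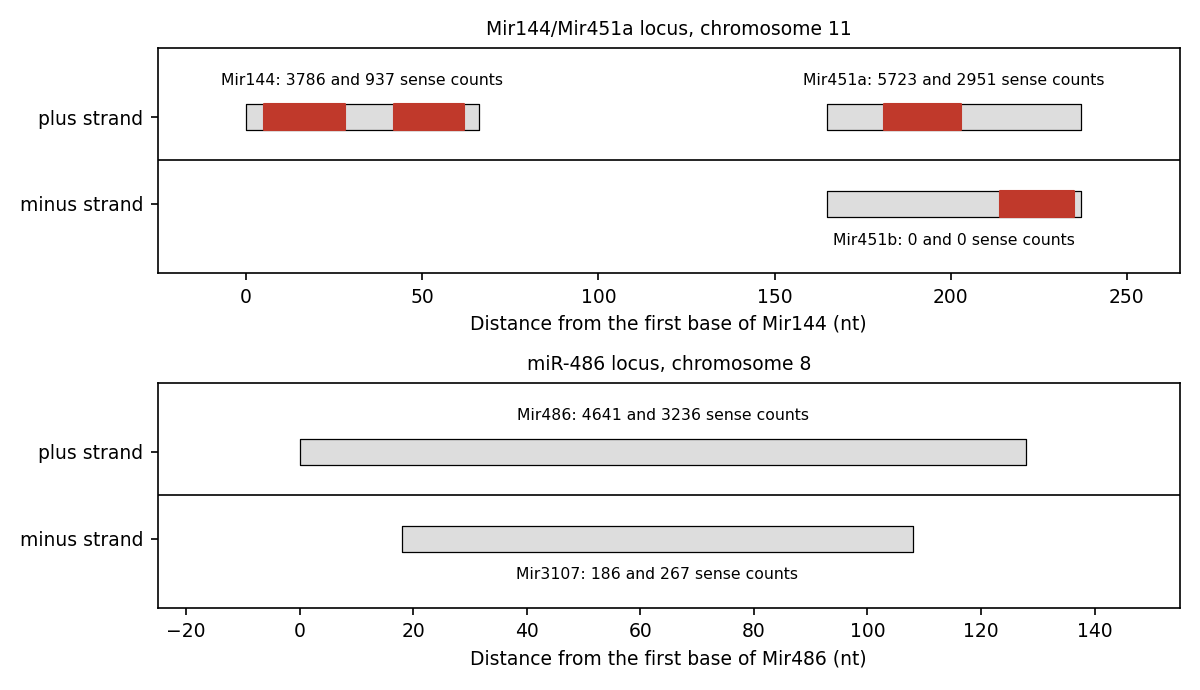
Hairpins on the plus strand (upper bars) and minus strand (lower bars) of the Mir144/Mir451a locus and the Mir486 locus, by distance in nucleotides from the first base of Mir144 or Mir486. Grey boxes are hairpins, red boxes mature sequences (shown for Mir144, Mir451a and Mir451b), and the labels give sense counts in replicates 1 and 2. Mir451b lies exactly opposite Mir451a, and Mir3107 lies within Mir486 on the other strand.

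The libraries held 3383676 sense gene counts in replicate 1 and 3676084 in replicate 2, and levels are given as sense counts per 1000000 of these totals (CPM). Since a read covers a whole mature microRNA, counts were not divided by gene length. Reads that mapped to several places entered no gene count and made up 43.9% and 43.2% of all reads in replicates 1 and 2. At least 10 counts in each library, here called detected, were reached by 316 of 2202 genes and by 4 of these 5. The cardiac muscle genes Mir208a and Mir499 were present, at 1418 ± 241 and 3772 ± 290 CPM (SD, n = 2). Intervals below are 95% intervals for counting error only. They treat reads as independent molecules, which PCR copies are not, so they may be too narrow.

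All reads counted at these loci came from the plus strand, except for a minority at the Mir486 locus. Mir144, which has no gene opposite it, had 3786 counts in replicate 1 and 937 in replicate 2 in the sense column. It had the same numbers in the column for either strand, and 0 and 0 in the antisense column. Its antisense floor of 3 counts corresponds to 0.887 and 0.816 CPM. Mir144 was therefore read from its own strand in both libraries, within this limit. A count per hairpin does not say whether miR-144-3p or miR-144-5p was sequenced, and the part of CAST/EiJ sequence variants could not be tested.

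Mir451a had 5723 sense counts in replicate 1 and 2951 in replicate 2, but 0 in both libraries in the column for either strand. Mir451b, its partner on the minus strand, had 0 sense counts in both libraries and 5723 and 2951 in the antisense column. The antisense counts of Mir451b were thus exactly the sense counts of Mir451a. Mir451b itself gave no read, and the floor of 3 counts stands at 0.887 CPM in replicate 1 and 0.816 CPM in replicate 2. The upper ends of its exact Poisson intervals were 1.09 and 1.00 CPM. Set against that floor of 3 counts per library, Mir451a was at least 1908-fold higher than Mir451b in replicate 1 and at least 984-fold higher in replicate 2. The minus strand held 0% of the 5723 and 2951 reads of the locus, with upper limits of 0.0524% and 0.102% for 3 counts.

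Mir486 had 4641 sense counts in replicate 1 and 3236 in replicate 2. Mir3107 had 186 and 267 sense counts, so that reads of both strands occurred here. The antisense columns mirrored these values: Mir486 had 186 and 267, and Mir3107 had 4641 and 3236. Both genes had 0 counts in the column for either strand in both libraries. The minus strand thus gave 186 of 4827 reads of the locus in replicate 1, or 3.85% (Wilson bounds 3.35 and 4.43), and 267 of 3503 reads in replicate 2, or 7.62% (6.79 and 8.55). Among reads placed at 1 site, this share was higher in replicate 2 than counting error alone allows. Whether a read of miR-486 could be placed on both strands was not tested, since no sequence of Mir486 or Mir3107 was matched. Such a read would map to several places and enter no gene count, so these shares cover only reads placed at 1 site. They do not give the strand use of miR-486 as a whole.

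The 0 in the column for either strand follows from the overlaps. In that column, 925685 reads of replicate 1 and 852067 of replicate 2 were set aside as ambiguous between genes. The reads of Mir451a, Mir486 and Mir3107 made up 0.618% (Mir451a) and 0.521% (Mir486 with Mir3107) of them in replicate 1. In replicate 2 they made up 0.346% and 0.411%. Over all genes, 99 antisense reads of 925784 in replicate 1 and 142 of 852209 in replicate 2 lay on genes with no microRNA gene opposite. Only the sense column therefore gives levels for Mir451a, Mir486 and Mir3107.

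**Figure D2:**
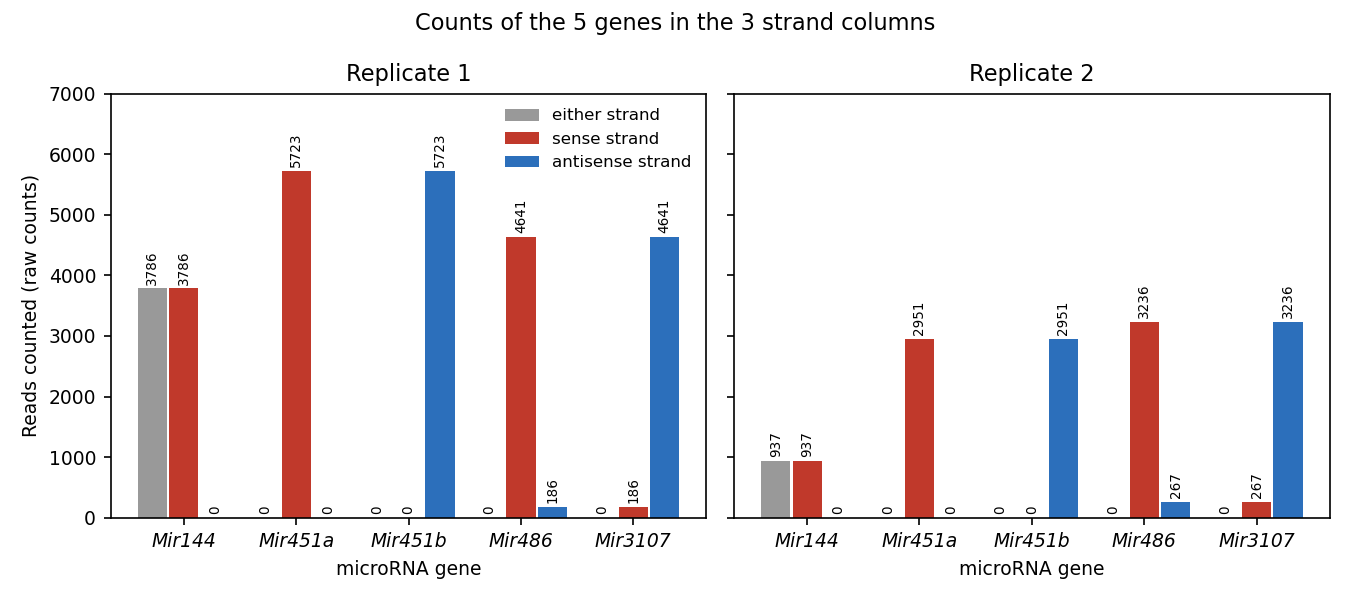
Raw counts (y axis) of the 5 microRNA genes (x axis) in the columns for either strand (grey), sense strand (red) and antisense strand (blue), with replicate 1 on the left and replicate 2 on the right. Each number is 1 library's count. The antisense bars of Mir451b and Mir3107 are as high as the sense bars of Mir451a and Mir486, and the grey bars are at 0 except for Mir144.

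By reads placed at 1 site, Mir451a and Mir486 were at like levels, Mir144 varied most relative to its mean, and Mir3107 was far lower. Reads of miR-486 that fit both strands, if any, are missing from the levels of Mir486 and Mir3107, and their number is not known. The levels, ranks, shares and ratios of these genes thus describe reads placed at 1 site, not miR-486 as a whole. Mir451a stood at 1691 CPM in replicate 1 (exact Poisson interval 1648 to 1736) and 803 CPM in replicate 2 (774 to 832), a mean of 1247 ± 628 (SD, n = 2). Mir486 stood at 1372 CPM in replicate 1 (1332 to 1412) and 880.3 in replicate 2 (850.2 to 911), a mean of 1126 ± 347. These means are closer together than 1 SD of either gene, and the order turned between the libraries.

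Mir144 stood at 1119 CPM in replicate 1 (1084 to 1155) and 255 in replicate 2 (239 to 272), a mean of 687 ± 611. Its SD was nearly as large as its mean. Mir3107 stood at 55.0 CPM in replicate 1 (47.4 to 63.5) and 72.6 in replicate 2 (64.2 to 81.9), a mean of 63.8 ± 12.5. It was the only detected gene of the 5 with the higher value in replicate 2. Mir451b was at 0 in both.

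By mean level, Mir451a ranked 60, Mir486 63, Mir144 76 and Mir3107 157 among the detected genes. Mir451a stood between Mir455 (1313 ± 311 CPM) and Mir185 (1180.2 ± 158), Mir486 between Mir342 (1139 ± 512) and Mir30c-2 (1123 ± 30.1). Mir144 stood between Mir127 (695 ± 309) and Mir1839 (681 ± 269), and Mir3107 between Mir487b (65.8 ± 11.6) and Mir542 (62.8 ± 8.14). None of these neighbours differed from its gene by more than the spread between libraries. The rank of Mir144 was 64 in replicate 1 and 102 in replicate 2, and that of Mir451a 51 and 70. Mir486 ranked 56 and 67, and Mir3107 162 and 154.

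Together, the 5 genes took 0.424% of the sense gene counts of replicate 1, with Wilson bounds of 0.417 and 0.431, and 0.201% of those of replicate 2 (0.197 to 0.206). The genes on chromosome 11 took 0.281% and 0.106%, and those on chromosome 8 took 0.143% and 0.0953%. The share of both loci was higher in replicate 1, and the difference was wider on chromosome 11. As a sum, the 5 genes had 4237 and 2011 CPM, against 5734 and 4923 CPM for 10 striated muscle microRNA genes, some of which have copies at several loci. Reads that fit several copies entered no gene count, so the muscle sum lacks them. The sum of the 5 genes likewise lacks reads of miR-486 that fit both strands, if any. Most of the muscle sum was Mir499 (mean 3772 CPM) and Mir208a (1418 CPM). In bulk tissue, fewer red cells and less of a microRNA per cell cannot be told apart.

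**Figure D3:**
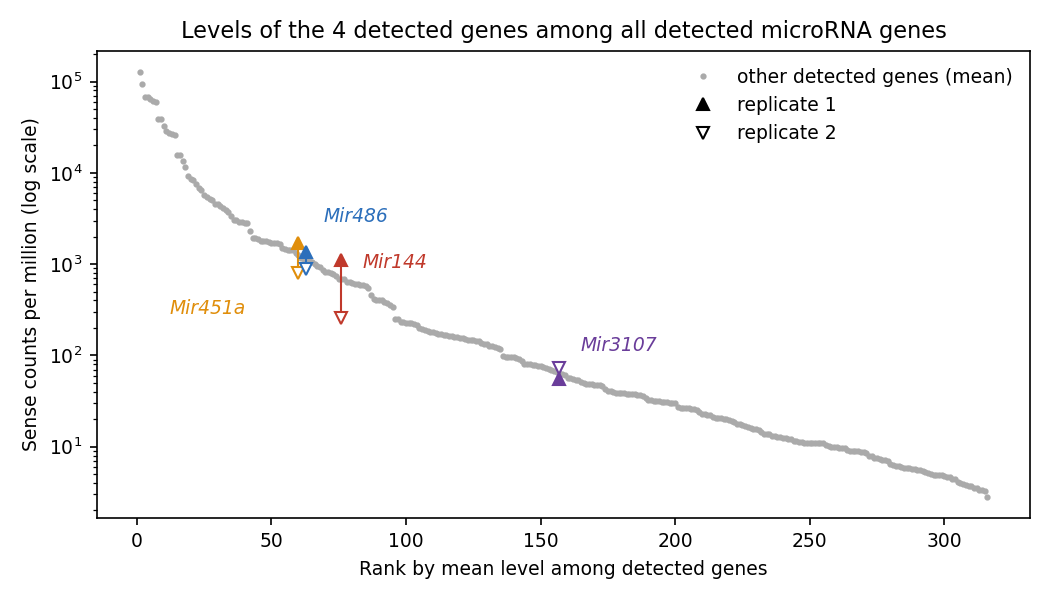
Level in CPM of sense counts (log scale) against rank by mean level for the detected microRNA genes (grey points, means of both libraries). Filled upward triangles are replicate 1 and open downward triangles replicate 2 for Mir144, Mir451a, Mir486 and Mir3107. As a ratio, Mir144 spans the widest range of the 4, between 1119 and 255 CPM.

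Within a library, the genes of 1 locus did not keep a fixed ratio. For each count of Mir144 there were 1.51 counts of Mir451a in replicate 1 (exact, 1.45 to 1.58), and 3.15 in replicate 2 (2.93 to 3.39). For each count of Mir3107, those of Mir486 numbered 25.0 (21.5 to 29.0) in replicate 1, against 12.1 (10.7 to 13.8) in replicate 2. Reads that fit both strands of that locus, if any, are missing from this ratio. Neither pair of intervals overlaps, so both ratios differed between the libraries by more than counting error. Mir451a over Mir486, from different loci, was 1.23 (1.19 to 1.28) and 0.912 (0.867 to 0.959). Between the libraries this ratio differed 1.35-fold, less than that of either pair within a locus. With 2 libraries, no test of these ratios against biological spread exists.

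The 3 plus-strand genes that were detected were higher in replicate 1, with Mir144 furthest apart. Counts were scaled by TMM, a normalization that assumes most genes do not differ, and the ratio is replicate 1 over replicate 2. It was 4.78-fold for Mir144 (exact interval 4.45 to 5.14), 2.30-fold for Mir451a (2.20 to 2.40) and 1.70-fold for Mir486 (1.62 to 1.78). On the log2 scale these are 2.26, 1.20 and 0.76. Mir3107 had a ratio of 0.825 (0.680 to 0.998), or -0.28 on the log2 scale. Its interval ends close to 1, so with TMM its direction is barely outside counting error. With other scalings its log2 ratio was -0.22 (DESeq2 size factors) and -0.40 (library totals). Whether its direction lies outside counting error thus depends on the scaling.

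Of the 5 genes, Mir144 and Mir451a were 2-fold or more higher in replicate 1, a difference that 36 of the 316 detected genes (11.4%) also showed. None was 2-fold or more higher in replicate 2, as 31 of the 316 (9.81%) were. In either direction, 67 of the 316 (21.2%) lay 2-fold or more apart. The balance of the background turned with the scaling: with library totals in place of TMM, 28 genes passed 2-fold toward replicate 1 and 41 toward replicate 2. The median log2 ratio of all detected genes was -0.05, and 46.8% of them had a ratio above 0. A difference as wide as that of Mir144, in either direction, was seen in 12 of the 316 genes (3.80%), Mir144 included. For Mir451a the number was 49 (15.5%), for Mir486 105 (33.2%) and for Mir3107 208 (65.8%). Mir144 thus lay in the outer part of the distribution, while Mir486 and Mir3107 lay within its bulk. These are descriptions of 2 libraries, and no p-value was computed.

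**Figure D4:**
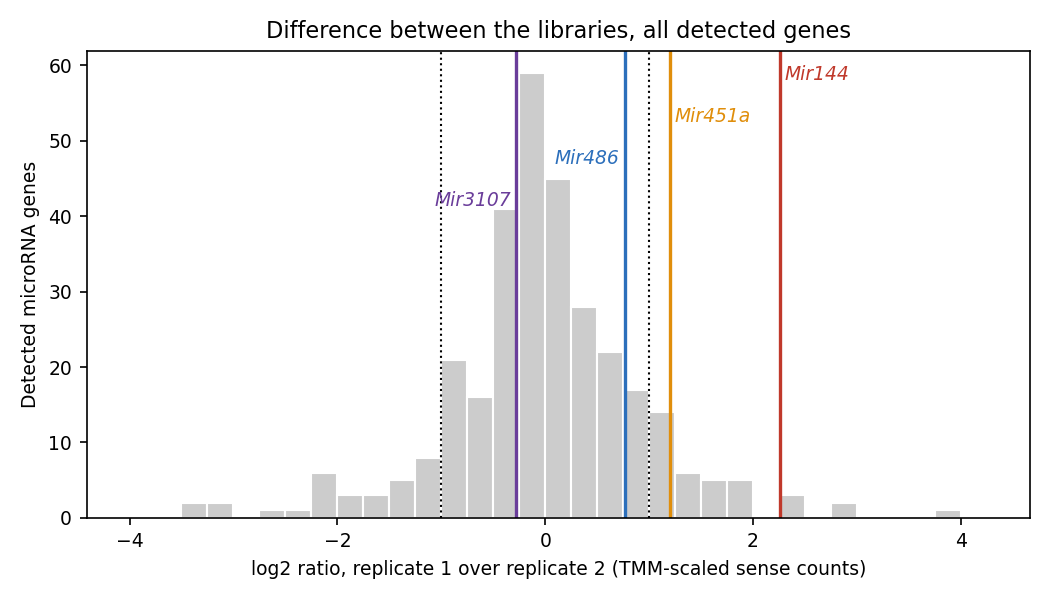
Number of detected microRNA genes (y axis) by log2 ratio of TMM-scaled sense counts, replicate 1 over replicate 2 (x axis, bars of 0.25). Coloured lines mark Mir144 (2.26), Mir451a (1.20), Mir486 (0.76) and Mir3107 (-0.28), and dotted lines mark 2-fold. Mir144 lies in the right tail.

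Mir144 and Mir451a come from 1 primary transcript, so their gap was set beside that of other close genes. The log2 ratios of the pair differed by 1.06, or 2.08-fold. Among 86 pairs of detected genes that neighbour each other on the same strand within 10 kb, the median difference was 0.46 (1.37-fold). A difference as wide as that of Mir144 and Mir451a was found in 18 pairs (20.9%), this pair included. The widest was that of Mir92-2 and Mir20b on the X chromosome, at 3.06, where Mir20b had only 19 and 95 counts. At a minimum of 30 counts, 7 of 61 pairs (11.5%) were as wide as Mir144 and Mir451a, and at 100 counts 7 of 45 (15.6%). The gap between Mir144 and Mir451a was wider than the median pair, and other pairs had such gaps at each minimum.

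Other microRNAs known from red blood cells were mostly higher in replicate 1 as well. This list and those after it were set up with earlier results of these libraries known, so their counts are descriptions. All 8 of the list were detected, and 7 had a ratio above 0 (background 46.8%). Of the 8, 4 were 2-fold or more higher in replicate 1 (background 11.4%). Mir15a lies 54 bases from Mir16-1, Mir15b 66 from Mir16-2 and Mir25 118 from Mir93, so the 8 genes are not all separate loci. Their median log2 ratio was 0.95, against -0.05 for all detected genes. The widest were Mir15a (2145 CPM in replicate 1 and 697 in replicate 2, log2 ratio 1.74), Mir15b (6336 and 2403, 1.52) and Mir25 (925 and 354, 1.51). Mir92-1 had a log2 ratio of 1.01, Mir16-2 0.89, Mir16-1 0.85 and Mir185 0.40. Mir93, of the same cluster as Mir25, had 4709 and 5571 CPM and a log2 ratio of -0.12. None of these microRNAs is confined to red cells, and Mir15a, Mir15b and the miR-16 genes are known as a cell cycle family of many tissues. Mir195a, of that family but off the list, had 6824 and 940 CPM and a log2 ratio of 2.98. Mir106b, a neighbour of Mir93 off the list, had 1.25. Off the list near Mir92-1, Mir17, Mir18 and Mir20a had -0.36, 0.36 and 0.02. The higher values in replicate 1 were thus not particular to the list. Mature miR-16 is encoded at both Mir16-1 and Mir16-2, so the counts of these genes, and likewise of Mir92-1, are uncertain.

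MicroRNAs described, mostly in human cells, as falling when red cells form had lower values in replicate 1. All 5 had a ratio below 0, as had 168 of all 316 detected genes. Of the 5, 2, Mir150 and Mir223, were 2-fold or more higher in replicate 2 (background 9.81%). Mir221 and Mir222 lie 504 bases apart on the X chromosome, so the 5 genes are not all separate loci. Mir221 had 1677 CPM in replicate 1 and 2894 in replicate 2 (log2 ratio -0.66), and Mir222 had 93.1 and 152 (-0.58). Both are known to act on the growth factor receptor gene KIT in human red cell precursors. The other 3, Mir223, Mir155 and Mir150, are also white blood cell genes.

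White blood cell microRNAs also had lower values in replicate 1. Of 6 genes, 5 were detected, all with a ratio below 0 (168 of all 316 detected), and 3 were 2-fold or more higher in replicate 2 (background 9.81%). Mir150, a lymphocyte microRNA, had 2345 CPM in replicate 1 and 7737 in replicate 2 (log2 ratio -1.60). The myeloid microRNA Mir223 had 133 and 322 (-1.15), and Mir142 of blood cells in general had 570.4 and 1323 (-1.09). The summed level of the list was 8645 CPM in replicate 1 and 16365 in replicate 2, with no member at 0 in both. The part of blood content in the differences of Mir144, Mir451a and Mir486 was not tested.

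Since Mir486 is a muscle microRNA too, the striated muscle list is set beside it. Mature miR-1a and miR-133a, the abundant muscle microRNAs, are each encoded at more than 1 locus, and reads that mapped to several places entered no gene count. Of 10 genes, 6 were detected, 4 with a ratio above 0 (background 46.8%), and 1, Mir208b, was 2-fold or more higher in replicate 1 (background 11.4%), counts close to the background. The median log2 ratio was 0.38, and the summed level was 5734 CPM in replicate 1 and 4923 in replicate 2, with no member at 0 in both. Mir208a had a log2 ratio of 0.47 and Mir499 of 0.28, against 0.76 for Mir486 and 1.20 for Mir451a. The other detected genes of the list were spread on both sides of Mir486, with log2 ratios of 1.90 for Mir208b, 0.54 for Mir1a-2, -0.50 for Mir206 and -0.85 for Mir133b. How much of Mir486 came from muscle and how much from blood was not tested.

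Other tissue markers also differed between the libraries. The endothelial gene Mir126a had 129043 CPM in replicate 1 and 57714 in replicate 2 (log2 ratio 1.28), and Mir126b, opposite it, was not detected, with a summed level of 129044 and 57715 CPM for the list. The smooth muscle genes Mir143 and Mir145a had log2 ratios of -0.26 and -1.66, and Mir145b was not detected. Their summed level was 35639 CPM in replicate 1 and 50826 in replicate 2. The liver gene Mir122 had 23.9 and 17.1 CPM (0.60). The part of these cell types in the results for Mir144, Mir451a and Mir486 was not tested.

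**Figure D5:**
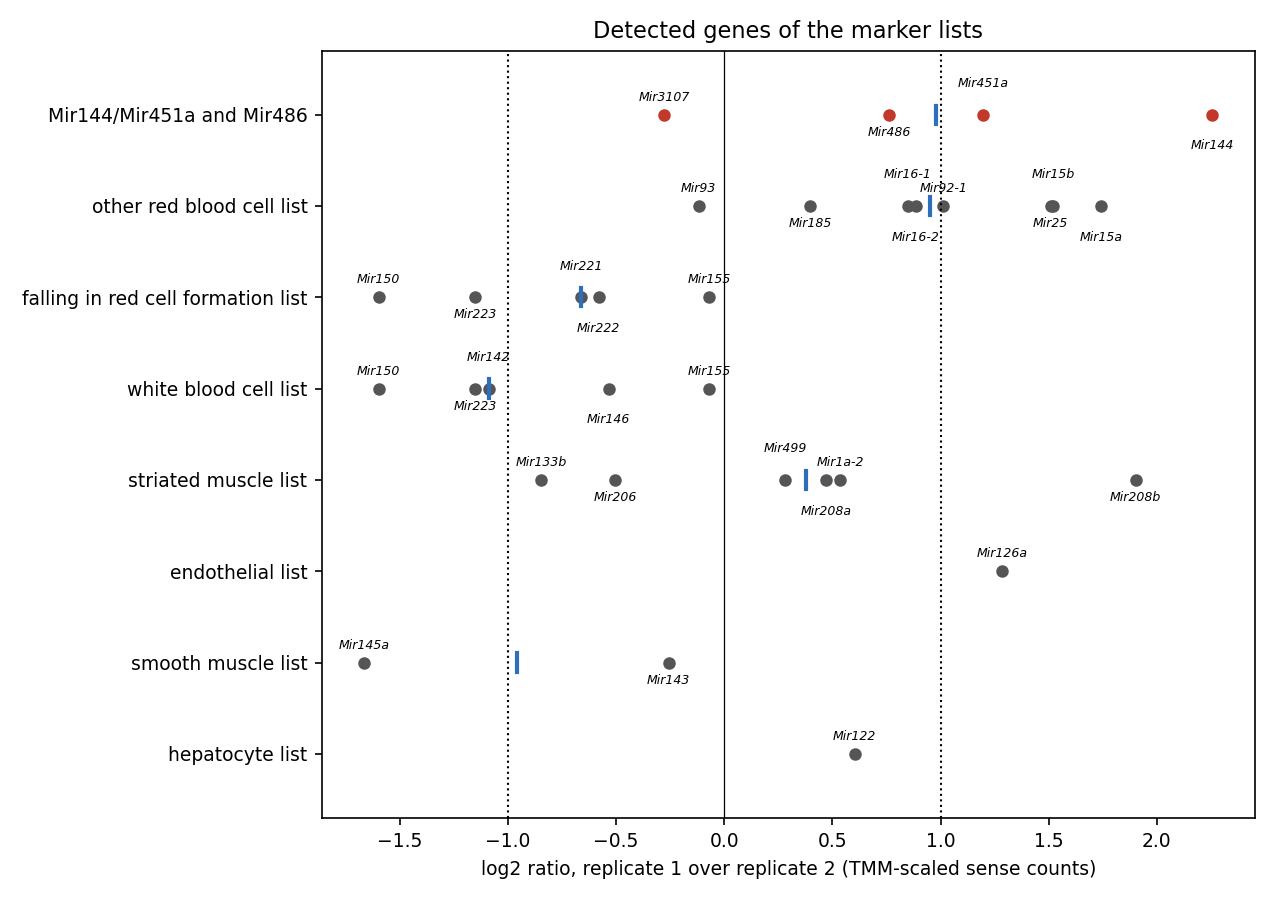
Log2 ratio of TMM-scaled sense counts, replicate 1 over replicate 2 (x axis), for each detected gene (points) of the 5 microRNA genes (red, top row) and the marker lists (grey). Blue bars are medians of lists with more than 1 detected gene, and dotted lines mark 2-fold. The top 2 rows lie mostly right of 0, and the rows of genes falling in red cell formation and of white blood cells lie left of it.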

How the data were processed

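Per the labels, microRNA libraries were made from total RNA of heart tissue with a size range under 30, for which no unit is given. For every microRNA gene, the authors deposited raw counts in 3 columns (either strand, sense and antisense). Assembly mm10 and annotation M21 are given in the deposited readme texts. The tools for alignment and counting were not given in the sources used here. The 4 rows that are no genes were kept out of totals. Unmapped and featureless reads took 14.9% and 5.07% of all reads of replicate 1, and 16.2% and 5.75% of replicate 2.

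All 2202 identifiers matched GENCODE M21. Log2 ratios used sense counts with 0.5 added and TMM scaling over the 316 detected genes (edgeR 4.0.16). DESeq2 1.42.0 gave alternative size factors. Intervals are exact (Poisson, or Clopper-Pearson for ratios of counts) or Wilson. Sequences came from RefSeq, GRCm38.p6. Tables were handled with pandas 2.3.3 in Python 3.11.15 (scipy 1.17.1 for intervals, matplotlib 3.10.9 for plots, numpy 2.4.6), and scaling was run in R 4.3.3. The scaling and ratios were run on simulated counts with counting noise only and as many genes raised as lowered. That run says nothing about the spread between the real libraries. Named were all 5 genes, their neighbours by level, the 2 genes nearest in ratio to Mir144, Mir451a and Mir486 (mean of 100 counts or more), genes of the lists and genes sharing a seed. The pair Mir92-2 and Mir20b was picked once values were known. The 5 genes and the lists were picked by name, with earlier results of these data known.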

Additional observations from a re-analysis of the deposited data

How the results depend on the processing

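The log2 ratios of Mir144, Mir451a, Mir486 and Mir3107 kept their direction under each alternative that gave a value. In the column for either strand, Mir451a, Mir486 and Mir3107 had 0 CPM and Mir451a over Mir144 was 0, because overlapping genes are ambiguous there. Ratios over Mir486 or Mir3107, log2 ratios of these 3 genes and the comparison of neighbouring pairs therefore gave no value in that column. With the sense and antisense columns summed, Mir3107 stood at 947 CPM and Mir451b at 989.8, which are reads of the opposite gene. Per 1000000 of all reads, Mir451a, Mir486 and Mir3107 had 446, 401 and 22.6, and the 5 genes took 0.112%. Without the genes on chromosome 11, the share was 0.119%. With library totals, the log2 ratios of Mir144, Mir451a and Mir486 were 2.13, 1.08 and 0.64, and with totals of all reads those of Mir451a and Mir486 were 1.13 and 0.69. Library totals moved the median of all detected genes to -0.18. Genes 2-fold or more higher in replicates 1 and 2 numbered 36 and 31 with TMM, but 28 and 41 with library totals, where replicate 2 had more. They numbered 55 and 49 at a minimum of 3 counts, and 23 and 9 at 100 counts. At 30 counts, 14 were higher in replicate 2. At 1.5-fold the numbers were 67 and 58, and at 3-fold 13 and 17, again with more in replicate 2. At 30 counts or more, 11.5% of neighbouring pairs lay as far apart as Mir144 and Mir451a. At 100 counts or more, 2.21% of genes lay as far apart as Mir144. Means with either library left out equal the single values in the text: 0.201% and 0.424% for the share of the 5 genes, for example. With 1 library left out, Mir451a over Mir486 ranged from 0.912 to 1.23, so the order of this pair is not settled. Medians of the red cell, falling, white blood cell and striated muscle lists kept their sign with library totals and DESeq2 size factors, checks chosen after the data were seen. No paired analysis was possible because there is 1 group. Depth limits Mir451b to under 0.887 and 0.816 CPM by the floor of 3 counts, and to under 1.09 and 1.00 CPM by its exact Poisson intervals.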

Other observations

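For Mir144, Mir451a and Mir486, the genes whose log2 ratio between the libraries was nearest are given here. Likeness here is the difference of log2 ratios over 2 libraries, among the 200 detected genes whose mean reached 100 counts. Nearest to Mir144 (2.26) were Mir214 (3217 CPM in replicate 1 and 695 in replicate 2, log2 ratio 2.33) and Mir22 (51384 and 14527, 1.95). Nearest to Mir451a (1.20) were Mir24-2 (211 and 103, 1.16) and Mir106b (1135 and 521, 1.25), a neighbour of Mir25 and Mir93. Nearest to Mir486 (0.76) were Mir505 (38.7 and 24.2, 0.80) and Mir29b-2 (38.7 and 26.1, 0.69). Nearness over 2 libraries is a description only, and Mir24-2 and Mir29b-2 encode mature microRNAs that other loci encode too.

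No mature microRNA of the RefSeq table shared all 7 seed bases with miR-144-3p, but miR-101a-3p shared the first 6, bases 2 to 7. Capitals mark all 7 seed bases in miR-144-3p, and only the 6 shared bases in miR-101a-3p.
miR-144-3p: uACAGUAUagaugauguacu
miR-101a-3p: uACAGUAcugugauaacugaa
Its gene Mir101a had 58.8 CPM in replicate 1 and 55.5 in replicate 2 (57.2 ± 2.35, n = 2) and a log2 ratio of 0.21. Mir144 was thus above Mir101a in both libraries, at 1119 and 255 CPM. No other mature microRNA of the table shared bases 2 to 7 with miR-144-5p, miR-451a or miR-451b. The comparison of 6 bases was chosen after the data were seen.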
